A study of Mus musculus with 69 samples.

Results

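The clustered protocadherins of mouse chromosome 18 were followed in the ventral striatum of 69 mice. They were taken as every gene of the deposited gene table with a Pcdha, Pcdhb or Pcdhg name and a number, in capitals or not, whose exons lie on chromosome 18 between 36.9 and 37.9 Mb of mm10. That gave 44 of 42279 genes and 50 of 253821 exons, with 6 genes in the alpha cluster, 20 in the beta cluster and 18 in the gamma cluster. The mice belonged to HDID1, a line selected over generations for intoxication in a drinking-in-the-dark test, or to HSNpt, the genetically heterogeneous stock that it is set against. HDID1 was represented by 17 females and 18 males and HSNpt by 17 of each sex, with 1 library per mouse. All of them, controls included, had taken a 4-day test with 1 bottle of 20% ethanol. Sessions lasted 2 h, or 4 h on the last day, and began 3 h into the dark phase. Blood was drawn as the last session ended, and 3 weeks later the tissue was cut by hand from a 2 mm coronal slice. Ages are not stated. With 1 selected line and 1 stock, the effect of selection and any other difference of these populations cannot be told apart.

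Clustered protocadherins are cadherin-like adhesion proteins of the neuronal surface. In the alpha and gamma clusters each variable exon has its own promoter and is spliced to constant exons that all genes of the cluster share, whereas a beta gene is a single exon. A neuron switches on a few of the alternative promoters, through chromatin loops held by CTCF and cohesin and through DNA methylation, and the C-type genes (Pcdhac1, Pcdhac2, Pcdhgc3, Pcdhgc4 and Pcdhgc5) are used more broadly. Proteins of a matching combination bind each other between membranes, which is known to let the branches of a neuron tell self from non-self. Loss of the gamma cluster in mice is known to cost interneurons and neurons of the spinal cord, and Pcdhgc4 is the gamma gene needed for that survival.

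Names in capitals needed care, because 5 names so written covered 11 exons and in 2 cases joined exons of several genes. PCDHA9 held the variable exons of Pcdha1, Pcdha2, Pcdha12, Pcdhac1 and Pcdhac2, matched by their start to RefSeq, and is not the gene Pcdha9, which had a count of its own. PCDHGB6 held the exons of Pcdhga3, Pcdhga11 and Pcdhgc3 and is not Pcdhgb6. The other 3 (PCDHGA9, PCDHGA12 and PCDHGC5) each held 1 exon of the gene of that name, and that of PCDHGC5 was 142 bp long. For all 44 genes the gene count was equal to the sum of the exon counts. RefSeq annotates 58 genes in the 3 clusters. Of these, Pcdha4, Pcdha6, Pcdha7, Pcdha11, Pcdhb21, Pcdhb22, Pcdhga4 and Pcdhga8 were not analysed here, nor were the 3 constant exons of the alpha and the 3 of the gamma cluster. The counts described are therefore those of variable exons. No source used here says how reads that match several similar members were counted, so the split between similar members is uncertain. Exons listed on the opposite strand overlapped 9 of the 50 exons. Their whole count, divided by the length of the overlap alone, was close to or above the member's count per kilobase. That value is too high where part of the exon lies outside the overlap, which held between 46.6% and 100% of each. The use of strand in counting is not stated, so the strand that gave those reads cannot be told.

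Library totals lay between 14077983 and 35257422 counts (median 17646316). The clusters took between 0.00960% and 0.0511% of a library, with a median of 0.0424%. A count of 0 in the smallest library allows up to 3 counts, or 0.213 CPM, where CPM is the count scaled to a common library size. Of the 69 libraries 11 stood apart, 9 of HDID1 and 2 of HSNpt, by more than 3 scaled median absolute deviations in shared spiny neuron markers or in 5' balance. The 5' balance is the median, over 1919 other genes, of the log2 ratio of first-exon to last-exon counts relative to the gene's mean over libraries, and low values mean that reads are scarce toward the 5' ends. Its median was 0.112 in HDID1 (range -3.16 to 0.67) and 0.275 in HSNpt (range -2.16 to 0.42). The 14 shared markers of spiny neurons, the main striatal cell type, summed to between 1811 and 14282 CPM in HDID1 (median 10515) and between 4458 and 18601 CPM in HSNpt (median 11854). Of the 14, 6 were lower in HDID1, where 5.73% of all genes were lower. In bulk tissue, fewer cells of a type and less RNA per cell cannot be told apart.

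Per kilobase of exon, 3 of the 5 C-type exons led the clusters in both lines. Pcdhgc3 was the highest, with a median of 16.3 CPM per kb in HDID1 and 18.2 CPM per kb in HSNpt. Pcdhac2 stood at medians of 8.91 and 9.59 CPM per kb, while the other alpha C-type exon, Pcdhac1, was at 0.942 and 1.06 CPM per kb. The exon of Pcdhgc5 stood at 7.48 and 11.2 CPM per kb, a level that rests on 142 bp. Among the remaining gamma exons the order was less steep. Pcdhga7 and Pcdhga6 followed in HDID1 at 5.61 and 4.52 CPM per kb, and Pcdhgc4 stood at 4.51 CPM per kb. The most used beta exon was Pcdhb20, at medians of 4.05 and 4.08 CPM per kb. Pcdhb1, at 0.212 and 0.196 CPM per kb, and Pcdha8, at 0.115 and 0.109 CPM per kb, closed the order in both lines. Neighbours in this order had ranges over mice that overlapped widely, so adjacent ranks do not separate. For 2 exons the place in the order differed most between the lines. Pcdhga11 was the fifth of 50 in HSNpt at 4.75 CPM per kb and ranked 31 in HDID1 at 1.36 CPM per kb. Pcdhb6 ranked 23 in HSNpt at 2.17 CPM per kb and 44 in HDID1 at 0.955 CPM per kb.

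**Figure D1:**
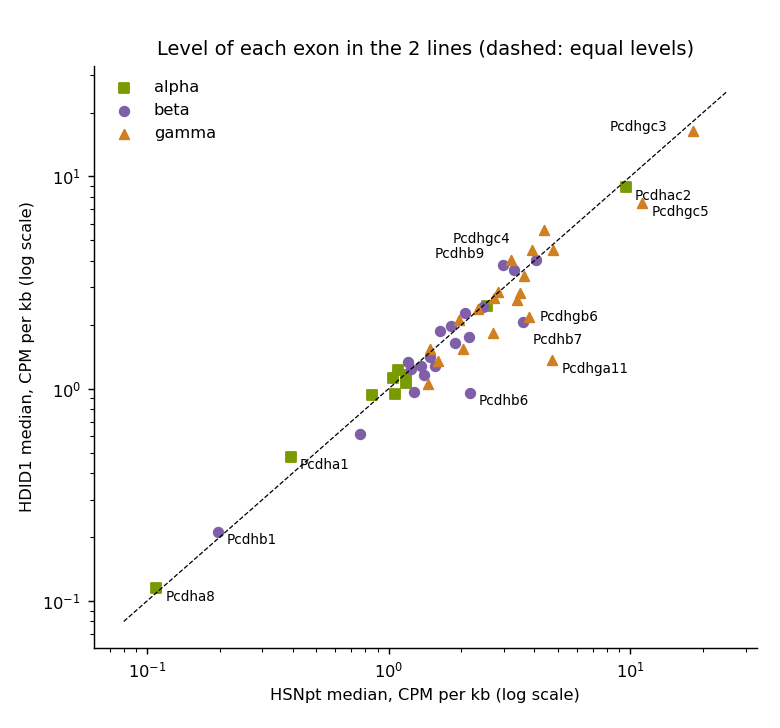
Median level of each of the 50 variable exons in HDID1 (vertical axis) against HSNpt (horizontal axis), in CPM per kb on log scales, with 1 point per exon and the dashed line at equal levels. Most exons lie near the line, and Pcdhga11 (1.36 against 4.75 CPM per kb) and Pcdhb6 (0.955 against 2.17) lie furthest below it.

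The comparison of the lines asks which members differ between the selected line and its stock. HDID1 mice had fewer reads of Pcdhb6 and Pcdhb7, adjacent genes of the beta cluster, and of several members of the gamma cluster with B-type names, led by Pcdhgb6. They had more reads of Pcdhb9. The alpha cluster held no gene that passed. Of 43 members tested, 9 were lower in HDID1 and 1 was higher (adjusted p under 0.05 over all 16844 genes, quasi-likelihood test of edgeR). Over all genes 5.73% were lower and 5.98% higher. The median log2 fold change was -0.091 over the 43 members and 0.012 over all genes. Pcdha8 was below the filter on low counts, with a median of 0.284 CPM in HDID1 and 0.270 CPM in HSNpt.

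In the beta cluster 4 of 20 genes were lower and 1 was higher. Their proteins share the adhesive outer part of the family but lack the common tail that constant exons give the others. Pcdhb6 (37333921 to 37337674) had between 2.14 and 6.85 CPM in HDID1 females, with a median of 3.97, and between 2.01 and 4.80 CPM in HDID1 males, with a median of 3.53. In HSNpt it had between 2.51 and 16.9 CPM in females, with a median of 8.75, and between 2.73 and 15.2 CPM in males, with a median of 8.10. The ranges overlapped at the low end, since 20 of 34 HSNpt mice were above the highest HDID1 mouse, and 35 of 35 HDID1 mice were below the HSNpt median. The log2 fold change was -1.08 (SE 0.145, adjusted p = 9.93e-08).

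Pcdhb7 (37341702 to 37345202), whose start lies 7.78 kb after that of Pcdhb6, showed the same direction. It had between 3.15 and 9.54 CPM in HDID1 females (median 7.19) and between 4.73 and 9.02 CPM in HDID1 males (median 7.12). Among HSNpt mice it lay between 4.67 and 16.8 CPM in females (median 12.7) and between 6.14 and 15.9 CPM in males (median 12.4). Of 34 HSNpt mice 24 were above every HDID1 mouse, and 35 of 35 HDID1 mice were below the HSNpt median. For Pcdhb7 the log2 fold change was -0.77 (SE 0.097, adjusted p = 2.05e-08).

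Pcdhb9 (37400855 to 37403909) was the 1 member that was higher in HDID1. It had between 9.58 and 17.6 CPM in HDID1 females (median 11.99) and between 8.87 and 14.7 CPM in HDID1 males (median 11.5). HSNpt mice had between 5.62 and 16.9 CPM in females (median 9.38) and between 5.94 and 13.9 CPM in males (median 8.54). Here the overlap was at the high end: 16 HSNpt mice were below the lowest HDID1 mouse, and 33 of 35 HDID1 mice were above the HSNpt median. The log2 fold change of Pcdhb9 was 0.39 (SE 0.081, adjusted p = 0.000739). The other beta genes that passed were Pcdhb4, with a log2 fold change of -0.35 (adjusted p = 0.0124), and Pcdhb5, with -0.30 (adjusted p = 0.00865). Both precede Pcdhb6 directly, so Pcdhb4, Pcdhb5, Pcdhb6 and Pcdhb7 form a run of 4 adjacent genes that were lower.

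In the gamma cluster 5 of 18 genes were lower and none was higher. The gamma genes come in A, B and C types that differ in their outer part, and 4 of these 5 carry B-type names, 1 of them (Pcdhgb8) annotated by RefSeq as a transcribed pseudogene. Pcdhgb6 (37742094 to 37744658) had between 0.5004 and 7.49 CPM in HDID1 females (median 5.59) and between 2.87 and 7.05 CPM in HDID1 males (median 5.42). In HSNpt it had between 3.64 and 13.7 CPM in females (median 10.2) and between 1.496 and 15.5 CPM in males (median 9.33). Of the HSNpt mice 21 were above every HDID1 mouse, and 35 of 35 HDID1 mice were below the HSNpt median. The log2 fold change of Pcdhgb6 was -0.86 (SE 0.146, adjusted p = 2.03e-05).

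Pcdhgb2 (37689828 to 37692590) had between 0.357 and 5.93 CPM in HDID1 females (median 4.04) and between 1.93 and 5.94 CPM in HDID1 males (median 4.44). HSNpt mice lay between 3.45 and 8.55 CPM in females (median 5.52) and between 0.810 and 9.96 CPM in males (median 5.64). The groups overlapped more than for Pcdhgb6, with 15 HSNpt mice above every HDID1 mouse and 33 of 35 HDID1 mice below the HSNpt median. For Pcdhgb2 the log2 fold change was -0.54 (SE 0.131, adjusted p = 0.00377).

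Pcdhgb8 (37761801 to 37764299) had between 0.286 and 6.26 CPM in HDID1 females (median 4.63) and between 2.41 and 6.91 CPM in HDID1 males (median 4.55). The HSNpt range was between 3.15 and 9.55 CPM in females (median 6.74) and between 0.623 and 11.7 CPM in males (median 6.93). For this gene 16 HSNpt mice were above every HDID1 mouse, and 34 of 35 HDID1 mice were below the HSNpt median. The log2 fold change of Pcdhgb8 was -0.61 (SE 0.155, adjusted p = 0.00593). Pcdhgb5 also passed, with a log2 fold change of -0.51 (adjusted p = 0.0180).

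The C-type genes, with the broad use described above, mostly did not pass. PCDHGC5 had between 0.0683 and 2.41 CPM in HDID1 females (median 1.54) and between 0.601 and 1.37 CPM in HDID1 males (median 0.949). In HSNpt it had between 0.888 and 2.39 CPM in females (median 1.51) and between 0.312 and 2.76 CPM in males (median 1.85). The male groups differed in their medians and the female groups hardly did, while all ranges overlapped. Its log2 fold change was -0.52 (SE 0.158, adjusted p = 0.0235) over both sexes, and the difference between the sexes had an unadjusted p of 0.0595. Pcdhgc4 had a median of 12.8 CPM (2.94 to 28.3) in HDID1 females and 19.8 CPM (7.43 to 31.1) in HDID1 males. In HSNpt its median was 12.6 CPM (7.61 to 25.3) in females and 13.9 CPM (2.62 to 25.5) in males. These ranges overlapped almost wholly, and the log2 fold change of Pcdhgc4 was 0.17 (adjusted p = 0.445). The exon of Pcdhgc3 had medians of 54.4 CPM (7.72 to 73.3) in HDID1 females and 59.8 CPM (26.1 to 69.1) in HDID1 males. Its HSNpt medians were 57.4 CPM (39.4 to 71.0) in females and 62.9 CPM (8.23 to 72.1) in males. No HSNpt mouse was above the highest HDID1 mouse, and the log2 fold change of the Pcdhgc3 exon counted on its own was -0.17 (adjusted p = 0.356).

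In the alpha cluster the genes of smallest p were Pcdha9, PCDHA9 and Pcdha5. Pcdha9 had medians of 2.27 CPM (0.0683 to 3.69) in HDID1 females and 2.86 CPM (0.761 to 4.07) in HDID1 males. Its HSNpt medians were 2.55 CPM (1.86 to 4.67) in females and 3.50 CPM (0.374 to 4.98) in males. The ranges overlapped in 26 of 34 HSNpt mice, and the log2 fold change was -0.34 (SE 0.161, adjusted p = 0.150). PCDHA9, the sum of 5 exons, had medians of 39.7 CPM (1.79 to 63.8) and 38.9 CPM (12.7 to 52.3) in HDID1 females and males. In HSNpt they were 40.9 CPM (24.9 to 58.5) and 42.6 CPM (3.55 to 56.96). No HSNpt mouse was above the highest HDID1 mouse, and the log2 fold change of PCDHA9 was -0.15 (adjusted p = 0.559). Pcdha5 had medians of 2.73 CPM (0 to 4.56) and 2.79 CPM (0.703 to 4.64) in HDID1 females and males. In HSNpt they were 2.64 CPM (1.36 to 3.62) and 3.19 CPM (0.187 to 5.15). The log2 fold change of Pcdha5 was -0.15 (adjusted p = 0.570). The alpha C-type exons lay inside PCDHA9. The exon of Pcdhac2 had medians of 27.1 CPM (1.22 to 40.7) and 26.6 CPM (8.20 to 35.2) in HDID1 females and males, against 28.7 CPM (17.1 to 41.7) and 30.6 CPM (2.31 to 40.4) in HSNpt. That of Pcdhac1 had medians of 2.40 CPM (0.0715 to 3.51) and 2.49 CPM (0.937 to 4.08), against 2.53 CPM (1.10 to 4.14) and 2.96 CPM (0.187 to 4.70). Counted on their own, their log2 fold changes were -0.23 for Pcdhac2 (adjusted p = 0.363) and -0.22 for Pcdhac1 (adjusted p = 0.378).

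Taking the exons apart brought out a member that no gene name shows. Pcdhga11, an A-type gene of the gamma cluster whose exon (37755731 to 37758367) is counted inside PCDHGB6, was chosen for description after its values were seen. It had between 0.643 and 5.86 CPM in HDID1 females (median 3.73) and between 1.74 and 4.47 CPM in HDID1 males (median 3.49). In HSNpt it had between 3.39 and 17.7 CPM in females (median 12.2) and between 0.748 and 22.95 CPM in males (median 12.9). Of 34 HSNpt mice 25 were above every HDID1 mouse and 9 lay within the HDID1 range, and 35 of 35 HDID1 mice were below the HSNpt median. In the fit over 124563 exons its log2 fold change was -1.64 (SE 0.171, adjusted p = 1.84e-10). PCDHGB6 as a whole did not pass, with a log2 fold change of -0.30 (adjusted p = 0.0884), and Pcdhgc3 made up a median of 81.1% of its count in HDID1. The share of PCDHGB6 that Pcdhga11 took had a median of 5.43% in HDID1 (3.54% to 8.58%) and 14.7% in HSNpt (3.55% to 22.8%).

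Exon usage asks whether an exon's line effect differs from that of its name as a whole. The exon of Pcdhga11 passed that test, with a lower value than PCDHGB6 as a whole (adjusted p = 3.18e-17, edgeR's diffSpliceDGE). In the exon fit its log2 fold change was -1.64, beside -0.089 for Pcdhga3 and -0.12 for Pcdhgc3. Of the 8 exons tested within PCDHA9 and PCDHGB6 only that of Pcdhga11 passed, where 0.475% of all 121150 exons tested passed. The Simes p over exons was 1.12e-17 for PCDHGB6 and 0.295 for PCDHA9, both adjusted. An exon of Gm26672 on the opposite strand overlaps 52.4% of the Pcdhga11 exon and was lower too, by a log2 fold change of -1.58 (adjusted p = 8.67e-10), so reads of the pair cannot be told apart. Over Pcdhga10, where an exon of Gm26672 covers the whole of the variable exon, that exon did not pass (log2 fold change 0.29, adjusted p = 0.170).

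**Figure D2:**
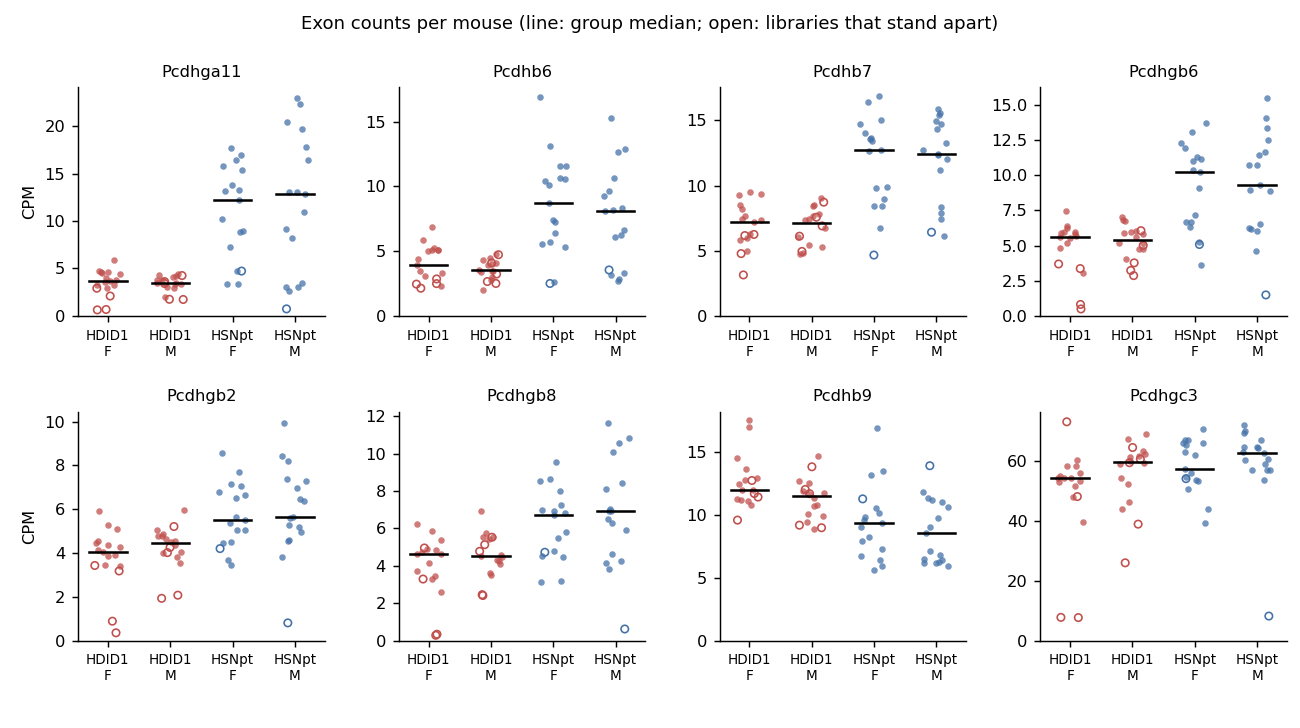
Counts of 8 exons in CPM (vertical axis), with 1 point per mouse for HDID1 and HSNpt females (F) and males (M), bars at group medians and open circles for the 11 libraries that stand apart. For Pcdhga11, Pcdhb6, Pcdhb7 and Pcdhgb6 HDID1 mice fill only the low part of the HSNpt range, for Pcdhb9 they fill the high part, and Pcdhgc3 overlaps.

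Exon by exon, 10 of 49 member exons tested were lower in HDID1 and 3 were higher, where 1.48% of all exons were lower and 1.26% higher. The higher ones were Pcdhb9 (log2 fold change 0.44), Pcdhb10 (0.23) and Pcdhb17 (0.20), of which Pcdhb10 and Pcdhb17 did not pass in the gene table, at adjusted p of 0.0988 and 0.130. The lower ones were Pcdhga11 and the 9 that were lower as genes. By type, 4 of 7 Pcdhgb exons were lower, with a median log2 fold change of -0.45 over the 7, against 1 of 10 Pcdhga exons, with a median of -0.066. Of the 3 Pcdhgc exons 1 was lower, of 20 Pcdhb exons 4 were lower and 3 higher, and of 7 Pcdha and 2 Pcdhac exons none passed. Whether the types differ was not tested.

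By position, the exons that passed lay in 2 stretches, apart from Pcdhb17 and Pcdhgc5. The first held Pcdhb4 to Pcdhb7, lower, and then Pcdhb9 and Pcdhb10, higher, with Pcdhb8 between them at an exon that did not pass. The second ran from Pcdhgb2 to Pcdhgb8, where lower exons were mixed with exons that did not pass. Pcdhb6 and Pcdhga11, the most changed exon of each stretch, start 422 kb apart. Pcdhga10, which follows Pcdhgb6 directly, had a log2 fold change of 0.28 as a gene (adjusted p = 0.198), so a lower exon could border one with a value above 0.

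**Figure D3:**
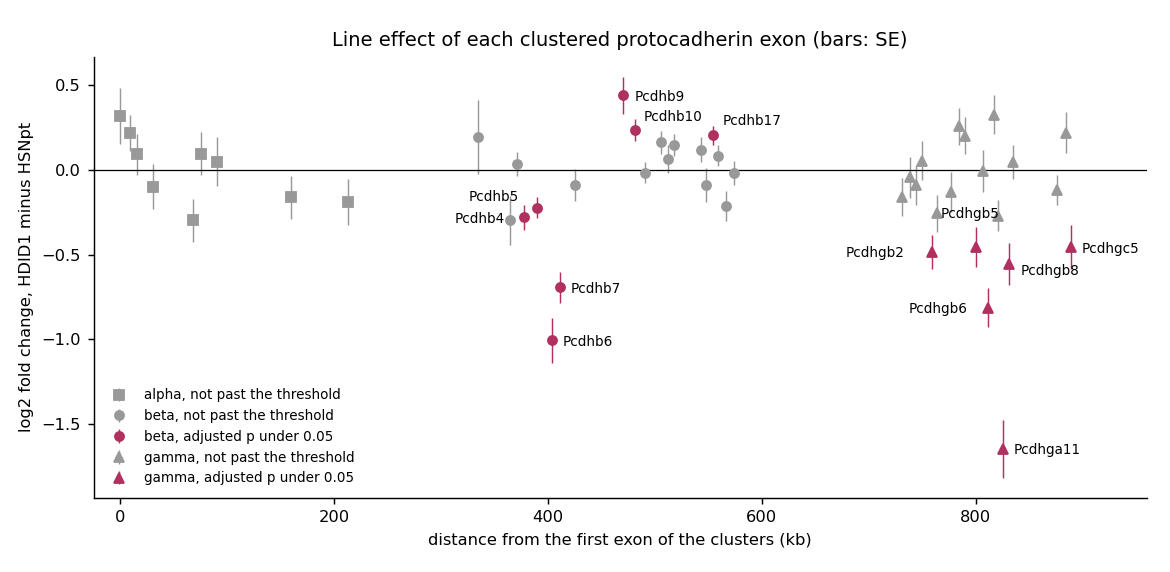
Log2 fold change (HDID1 minus HSNpt, vertical axis) of each tested member exon against its distance in kb from the first exon of the clusters, with SE bars and coloured points where the adjusted p is under 0.05. Apart from Pcdhgc5, the lower exons fall in a beta stretch that ends with Pcdhb7 and a gamma stretch from Pcdhgb2 to Pcdhgb8. The gamma stretch holds Pcdhga11 (-1.64) and also exons that did not pass, and the alpha exons scatter around 0.

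Counts of the members went with the 5' balance of the library, and those of many also with its spiny neuron score. Across HDID1 mice the correlation of an exon's count with 5' balance had a median of 0.92 over the 10 alpha exons, 0.60 over the 20 beta exons and 0.93 over the 20 gamma exons. In HSNpt the medians were 0.86, 0.34 and 0.81. Without the libraries that stand apart they were 0.61, 0.052 and 0.37 in 26 HDID1 mice and 0.61, 0.30 and 0.47 in 32 HSNpt mice. The 3 libraries of lowest balance had the lowest alpha and gamma sums, and the beta sum was less low in them. With the spiny neuron score the median correlations of the alpha, beta and gamma exons were 0.29, 0.53 and 0.46 in HDID1. In HSNpt they were 0.035, 0.40 and 0.32. Without the libraries that stand apart they were -0.10, 0.47 and 0.17 in HDID1 and 0.095, 0.43 and 0.41 in HSNpt. These are descriptions over mice whose values share library scaling.

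**Figure D4:**
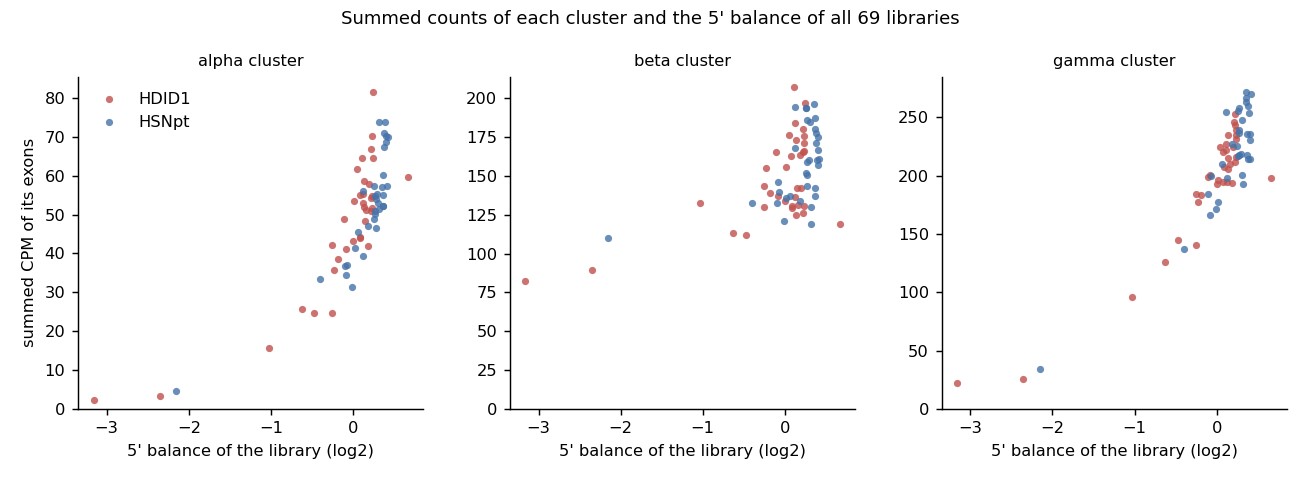
Summed CPM of the exons of the alpha, beta and gamma clusters (vertical axes) against the 5' balance of the library (log2, horizontal axes), with 1 point for each of the 69 libraries. Sums are lowest in the libraries of lowest balance, down to 2.36 CPM for alpha and 22.5 CPM for gamma, while the lowest beta sum is 82.6 CPM.

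The leading genes differed by close to the same amount without those libraries. Without the 11 libraries 14 members passed, 10 lower and 4 higher, where 3.28% of all genes were lower and 2.02% higher. Pcdhb6 then had a log2 fold change of -1.05, Pcdhb7 of -0.77, Pcdhgb6 of -0.76 and Pcdhb9 of 0.44, and the exon of Pcdhga11 of -1.60. The members that passed in addition were Pcdhb17 (0.23), Pcdhga7 (0.34) and Pcdhga10 (0.41), higher, and PCDHGB6 (-0.24), lower. With 5' balance as a term in the fit 7 members were lower and 12 higher, where 7.94% of all genes were lower and 7.34% higher. The 12 were Pcdha3, Pcdha10, PCDHA9, Pcdhb9, Pcdhb10, Pcdhb17, Pcdhga7, Pcdhga10, PCDHGA12, Pcdhgb1, Pcdhgb4 and Pcdhgc4. Of the genes lower in the fit without that term, Pcdhgb5 (-0.24, adjusted p = 0.0509) and PCDHGC5 (-0.27, adjusted p = 0.116) did not pass there. Pcdhgb2 (-0.29), Pcdhgb8 (-0.32), Pcdhb4 (-0.22) and Pcdhb5 (-0.19) passed with smaller differences. With scores of 6 sets of cell type markers as terms 3 were lower (Pcdhb6 at -0.63, Pcdhb7 at -0.44 and Pcdhgb6 at -0.61) and Pcdhb9 was higher at 0.35, where 2.25% of all genes were lower and 1.43% higher. Those that no longer passed with the scores were Pcdhgb2 (-0.28, adjusted p = 0.252), Pcdhgb8 (-0.42, adjusted p = 0.144), Pcdhgb5 (-0.37, adjusted p = 0.184), PCDHGC5 (-0.41, adjusted p = 0.0811), Pcdhb4 (-0.28, adjusted p = 0.149) and Pcdhb5 (-0.15, adjusted p = 0.338). In that fit the exon of Pcdhga11 stood at -1.16 (adjusted p = 0.000103). The part of tissue makeup in the smaller differences was not tested.

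The summed level of each cluster differed little beside its spread. The alpha exons summed to a median of 51.1 CPM in HDID1 (2.36 to 81.4) and 52.5 CPM in HSNpt (4.68 to 73.7). The beta exons summed to 142 CPM (82.6 to 207) and 158 CPM (110 to 196). The gamma exons summed to 206 CPM (22.5 to 253) and 222 CPM (34.03 to 272). Without the libraries that stand apart the beta medians were 159.4 CPM in HDID1 and 159.5 CPM in HSNpt.

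Individual HSNpt mice differed widely in the members that separated the lines, and the way they varied together was examined among the 13 exons that had passed. Correlations on log2(CPM + 0.1) were computed within each line without the libraries that stand apart, a choice made after the data were seen, for 78 pairs in each line and 156 relations in all. In 32 HSNpt mice 39 pairs had a positive and 9 a negative correlation at a Benjamini-Hochberg adjusted p under 0.05 (two-sided, 100000 permutations), and in 26 HDID1 mice 35 were positive and none negative. For the 45 pairs in which both exons were lower in HDID1, the median r was 0.78 in HSNpt, with 45 of 45 above 0, and 0.39 in HDID1, with 44 of 45 above 0. Over all 1176 pairs of tested member exons the medians were 0.36 and 0.44. After 5' balance and the spiny neuron score were taken out, the median over those 45 pairs was 0.69 in HSNpt and 0.32 in HDID1. Pcdhgc5 was an exception in HSNpt. Its r with the other lower exons lay between 0.21 and 0.35, with adjusted permutation p of 0.082 or more. With both measures taken out these values lay between -0.17 and -0.016.

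The pair that starts 422 kb apart shows the pattern. Across HSNpt mice Pcdhb6 and Pcdhga11 had Pearson's r of 0.91 and Spearman's rho of 0.85, with a permutation p of 1e-05, the smallest that these permutations can give, and an adjusted p of 5.38e-05. Without the 2 mice farthest from the median r was 0.88. In HDID1 the same pair had r of 0.31 (permutation p = 0.13) and rho of 0.41, within a much narrower range of counts. Pcdhb6 with its neighbour Pcdhb7 had r of 0.92 in HSNpt and 0.60 in HDID1. Pcdhgb6 and Pcdhga11, 13.6 kb apart, had r of 0.89 in HSNpt and 0.62 in HDID1.

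Pcdhb9 ran the other way in HSNpt. Its correlation with the 10 exons that were lower had a median of -0.65, with 0 of 10 above 0, and a median of 0.10 in HDID1. With Pcdhga11 it had r of -0.78 and rho of -0.78 in HSNpt (permutation p = 1e-05, adjusted p = 5.38e-05), r of -0.76 without the 2 farthest mice, and r of -0.13 in HDID1. HSNpt mice with few Pcdhga11 reads had many Pcdhb9 reads, at levels like those of HDID1 mice. Within the 25 HSNpt mice that were above every HDID1 mouse in Pcdhga11, r was 0.73 for Pcdhb6 and -0.64 for Pcdhb9. Within the other 7 it was 0.52 and 0.37. The remaining exons that were lower had r with Pcdhga11 between 0.55 (Pcdhb4) and 0.83 (Pcdhgb6) in the 25. In the 7 they lay between -0.15 (Pcdhgc5) and 0.41 (Pcdhgb5), with Pcdhgb6 at 0.023. The mice were parted by the Pcdhga11 count itself, which narrows its range within each part. The values of the 25 and of the 7 therefore cannot be set against each other. Whether the correlations differ between the lines was not tested.

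**Figure D5:**
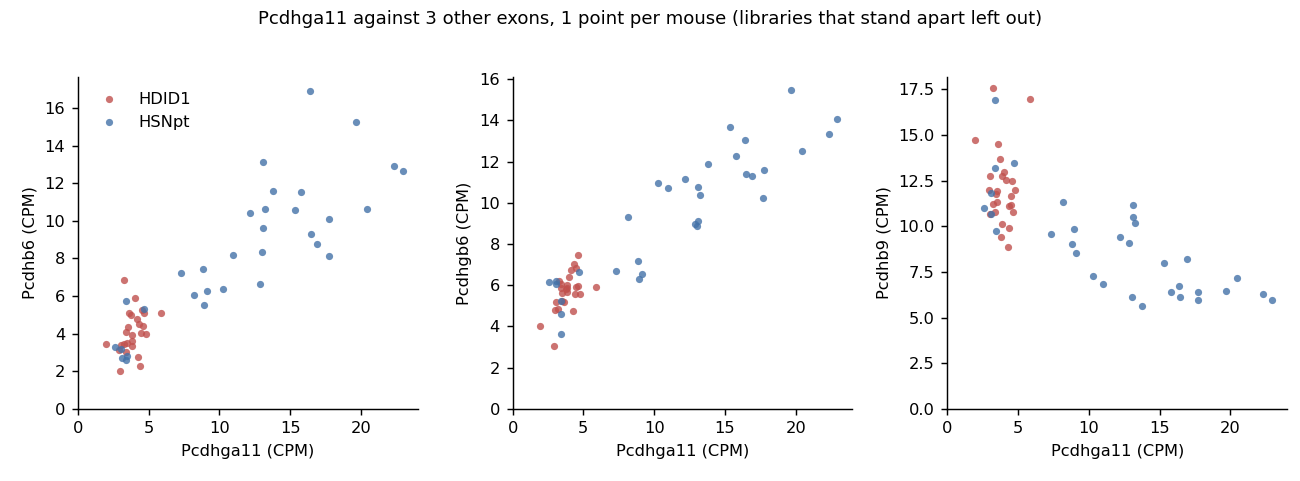
Counts of Pcdhb6, Pcdhgb6 and Pcdhb9 in CPM (vertical axes) against Pcdhga11 in CPM (horizontal axes), with 1 point per mouse for 26 HDID1 and 32 HSNpt mice. HSNpt mice spread along a rising band for Pcdhb6 (r 0.91) and Pcdhgb6 (r 0.89) and a falling band for Pcdhb9 (r -0.78), and HDID1 mice gather at its low Pcdhga11 end.

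Within each sex the same direction was seen for the leading genes. In females 3 members were lower (Pcdhb6, Pcdhb7 and Pcdhgb6) and Pcdhb9 was higher, where 1.55% of all genes passed in either direction. In males 4 were lower (the same 3 and PCDHGC5) and none was higher, where 4.24% of all genes passed. Pcdhb6 had a log2 fold change of -1.09 in females and -1.08 in males, and Pcdhb7 had -0.76 and -0.79. No member passed for the line by sex interaction, where 0% of all genes did and 848 had an unadjusted p under 0.05, and the smallest member p was that of PCDHGC5 given above. DESeq2 also called no member for the interaction. Sex itself gave 0 of 43 members by edgeR and by DESeq2, where 0.095% of all genes passed and 1529 had an unadjusted p under 0.05. The median log2 difference of males from females was -0.092 over the 20 beta genes, with 18 of 20 below 0. It was -0.027 over all 43 members and -0.0069 over all genes. Counts of the beta genes vary together over libraries, so the 18 are not separate observations. Of 49 member exons 0 passed for sex, where 125 of 124563 exons did. Pcdhb10 came closest among them (log2 difference -0.27, adjusted p = 0.0501 by edgeR).

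HSNpt is a heterogeneous stock, and the spread between mice was compared as the mean absolute deviation of log2 CPM from the group median. No member passed by limma, where 0.0475% of all genes did and 598 had an unadjusted p under 0.05. Pcdhb9 came closest, with a mean deviation of 0.164 in HDID1 and 0.350 in HSNpt (unadjusted p = 0.000282, adjusted p = 0.183). Pcdhb6 had 0.348 and 0.607 (unadjusted p = 0.00891, adjusted p = 0.853). The third member with an unadjusted p under 0.05, Pcdhga1, varied more in HDID1, at 0.548 against 0.266 (unadjusted p = 0.0371, adjusted p = 0.853). Over all 43 members 11 had the smaller deviation in HDID1, and the median difference of HDID1 from HSNpt was 0.046, or -0.044 without the libraries that stand apart.

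The blood ethanol reading of each mouse, whose unit is not stated, had a median of 1.498 in HDID1 (0 to 2.81) and 0.256 in HSNpt (0 to 1.70), with 16 HSNpt mice and 1 HDID1 mouse at 0. No member's count followed the reading at an adjusted p under 0.05 in either line by edgeR. In HDID1 0% of 16270 genes did, and in HSNpt 0% of 16227 genes did, with 1406 and 476 genes at an unadjusted p under 0.05. In HDID1 42 of 43 members had a slope above 0, with a median of 0.16 log2 per unit, and 2 had an unadjusted p under 0.05. In HSNpt 39 of 42 had a slope below 0, with a median of -0.10, and 1 had an unadjusted p under 0.05. Without the 2 HSNpt libraries that stand apart that median was -0.016, and without the 9 of HDID1 the median there was 0.11. Over all genes tested, with all libraries, the median slope was 0.00077 in HDID1 and 0.0063 in HSNpt. Counts of the members vary together over libraries, so the members sharing a sign are not separate observations. The correlation of 5' balance with the reading was 0.17 in HDID1 and -0.25 in HSNpt, and -0.043 and 0.12 without the libraries that stand apart. Its part in the slopes was not tested.

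Other genes of the protocadherin pathway were taken as lists. Of 11 non-clustered protocadherins tested none passed; their median log2 fold change was 0.044, and the smallest p was that of Pcdh20 (0.26, adjusted p = 0.0988). Of 19 regulators of promoter choice, such as CTCF, cohesin subunits and DNA methyltransferases, none passed, with a median of -0.048 against 0.012 over all genes. The smallest p among them was that of Dnmt3a, a DNA methyltransferase (-0.18, adjusted p = 0.219). From the list of 17 partners and signalling genes, Abi1 was lower. Abi1, a subunit of the WAVE complex that drives actin branching, had a median of 126.5 CPM in HDID1 and 140.9 CPM in HSNpt (log2 fold change -0.18, adjusted p = 0.00921). The median log2 fold change over the 17 was -0.16.

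Genes around the clusters were counted in the same fit. Of 41 neighbours tested within 1 Mb, 2 were lower and 3 were higher, with a median log2 fold change of 0.028, beside the 5.73% and 5.98% over all genes, so these counts are near the background. Spry4, an inhibitor of receptor tyrosine kinase signalling, had medians of 12.95 CPM in HDID1 and 10.01 CPM in HSNpt (log2 fold change 0.34, adjusted p = 0.000404). Arap3, a GTPase-activating protein, had 7.20 and 9.01 CPM (-0.39, adjusted p = 0.000459). The noncoding 3222401L13Rik, between the beta and gamma clusters, had 2.15 and 1.66 CPM (0.42, adjusted p = 0.00571). Of the 8 tested neighbours that lie between the first and last member, 2 were higher (Taf7 and 3222401L13Rik) and none was lower as a gene. The rest of the 8 have exons on the opposite strand that overlap member exons. Their reads cannot be told apart from those of the members there, and they are counted among the 41 too. Gm26672 did not pass as a gene, at -0.20, while its exon over Pcdhga11 was lower in the exon fit, at -1.58.

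Markers of other cells were read in the same libraries. The counts of each list stand beside 5.73% of all genes lower in HDID1 and 5.98% higher. Of 8 hypothalamus markers tested 4 were higher in HDID1, among them Hcrt (log2 fold change 2.84), Gal (0.97) and Trh (0.86). The median of Hcrt was 0.185 CPM in HDID1 and 0.112 CPM in HSNpt. Both lie below the 0.213 CPM that a count of 0 allows in the smallest library, so the fold change of Hcrt rests on mice with higher counts. The list of 9 summed to between 6.32 and 1706 CPM in HDID1 (median 108) and between 4.20 and 468 CPM in HSNpt (median 39.4), and Hcrt and Sim1 were at 0 in at least 1 mouse of each line. Of the 6 spiny neuron markers that were lower, those of smallest p were Ptpn5 (-0.40), Foxp1 (-0.48) and Gnal (-0.34). Of 6 endothelial markers 3 were lower (Tek, Slco1a4 and Pecam1, between -0.32 and -0.20), and of 8 microglial markers Cx3cr1 was lower (-0.22). Of 9 astrocyte markers Fgfr3 (0.17) and Gjb6 (0.32) were higher and Slc1a2 (-0.30) was lower. Of 10 interneuron markers Calb2 was higher (1.01), and of 8 pan-neuronal markers Stmn2 was higher (0.30) and Rbfox3 lower (-0.24). No cortex, choroid plexus, oligodendrocyte or precursor marker passed.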

How the data were processed

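RNA of the ventral striatum was sequenced from 69 mice as poly-A selected, stranded libraries, 6 to a lane, per the labels' protocols. The authors deposited raw read counts per gene and per exon, with no normalization, and the blood ethanol reading stands in the file headers. The submitters' processing notes name the genome build mm10 and the tools STAR, bedtools, CASAVA, edgeR and FastQC. Versions, the use of strand and the treatment of reads with several matches are not given there. Loss of reads that differ from the reference strain was not tested. The members and gene lists were chosen with earlier results of these data known.

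Counts were filtered with filterByExpr on the 4 groups of line by sex, scaled by TMM and fitted in edgeR 4.0.16 (R 4.3.3) with quasi-likelihood F tests on 4 group means over all 69 libraries, adjusted by Benjamini-Hochberg over all genes or exons tested at a threshold of 0.05. The line effect is HDID1 minus HSNpt. CPM uses the TMM library size of the gene table. Exon usage was tested with diffSpliceDGE, spread with limma 3.58.1 on deviations of log2 CPM (prior count 2), and the blood ethanol slope within each line with sex as a term. DESeq2 1.42.0 was an alternative test. Tables and permutations were made in Python 3.11.15 with scipy 1.17.1. The scripts were tested on simulated data with known changes.

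Values by group are given for the 3 genes of smallest p in each cluster with a mean of at least 1 CPM and for the C-type genes, other members past the threshold are named, and up to 3 genes are named from each list. A gene of the partners list that the rule takes is not reported here. Alternatives covered scaling, low-count filters, test, design, libraries that stand apart, marker scores, 5' balance and the feature counted. Nothing in the labels says that mice are unrelated, so p-values measure the spread between these samples. The counting floor covers counting error only.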

Additional observations from a re-analysis of the deposited data

How the results depend on the processing

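The count of 10 members that passed was 10 under RLE or upper-quartile scaling, no filter, a filter of 1 CPM, additive terms, without the deepest library and by DESeq2, 11 with each exon counted alone and 14 without the libraries that stand apart. It was 4 with 6 marker scores, 4 with those scores and without the libraries that stand apart (an alternative added after the data were seen), and 19 with 5' balance. The 13 exons that passed were 5 with the scores and 23 with 5' balance, the latter also added after the data were seen. For spread, deviations from the group mean gave 1 member in place of 0. Some directions turned, none of them in a gene that had passed. With 5' balance PCDHA9 was at 0.17, Pcdha5 at 0.17 and the exons of Pcdhac1, Pcdhac2 and Pcdhgc3 at 0.081, 0.061 and 0.041. With the scores Pcdhgc4 was at -0.15 as a gene and -0.094 as an exon, and at -0.088 without the libraries that stand apart as well. The causes were not tested. Over 252 alternatives of named genes or exons, most of them chosen for small p, 213 kept direction and side of the threshold, 29 lost it, 2 gained it and 8 turned. Other members are not in this count, such as Pcdhga7, Pcdhga10 and PCDHGB6, which passed without the libraries that stand apart. Groups had 17 or 18 mice, and of single libraries only the deepest was left out. No paired analysis was possible because replicate numbers were given in accession order and pair no mice. Depth limits Pcdha8, Pcdhb1 and PCDHGC5, whose counts were few.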
